A study of Mus musculus with 12 samples.

Results

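The genes described here are 8 genes of cholesterol efflux and lipid storage in the mouse kidney. They are the nuclear receptor gene Nr1h3, the sterol transporter genes Abca1 and Abcg1, the apolipoprotein gene Apoe, the ubiquitin ligase gene Mylip, the lipid droplet coat gene Plin2, the fatty acid translocase gene Cd36 and the lipoprotein lipase gene Lpl. They were picked by gene symbol from 45777 genes in the expression table, and all 8 were among the 18730 genes that passed the filter on low counts. On GRCm38.p6, Nr1h3 (gene ID 22259) lies at chr2:91184061-91202829 on the minus strand, Abca1 (11303) at chr4:53030789-53159988 on the minus strand and Abcg1 (11307) at chr17:31057694-31117984 on the plus strand. Apoe (11816) lies at chr7:19696244-19701310 on the minus strand, Mylip (218203) at chr13:45389742-45411940 on the plus strand and Plin2 (11520) at chr4:86626910-86670217 on the minus strand. Cd36 (12491) lies at chr5:17781690-17888959 on the minus strand and Lpl (16956) at chr8:68880555-68906932 on the plus strand.

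All 12 libraries came from kidneys of wild-type male C57BL/6 mice and were labelled as 1 batch. The libraries of 3 groups, 3 in each, came from mice given cisplatin, a platinum drug that injures kidney tubules, by intraperitoneal injection at 9 mg/kg weekly for 5 cycles. These mice then had 5 intravenous doses at 3-day intervals of phosphate-buffered saline (PBS), of 200 µg iMSC-EVs (EV200) or of 400 µg iMSC-EVs (EV400), a vesicle preparation whose abbreviation the labels do not spell out, and kidneys were taken 3 days after the last dose. The normal group of 3 had neither cisplatin nor iMSC-EVs, so in PBS kidneys against normal kidneys the drug cannot be told apart from the injections. The labels call the 3 libraries of a group biological replicates without saying that each came from a separate mouse. The p-values therefore judge group differences against the spread between these libraries, whether or not they are separate mice. Ages were not given in the labels.

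Cells cannot break down the sterol ring, so surplus cholesterol is stored as ester in droplets or passed out to lipoproteins. The liver X receptors, of which Nr1h3 encodes the alpha form, bind oxidised cholesterol, pair with the retinoid X receptor on direct repeats of a hexamer, and switch on Abca1, Abcg1, Apoe and Mylip; Abca1 and Abcg1 export sterol, Apoe carries it, and Mylip is a ubiquitin ligase that marks lipoprotein receptors for breakdown. Lpl frees fatty acids from circulating triglyceride, Cd36 helps take them up and Plin2 coats the droplets in which they are stored. Peroxisome proliferator-activated receptors (PPARs) can raise Plin2 and Cd36, and the proximal tubule of the kidney lives largely on fatty acid oxidation.

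The DNA just ahead of 1 RefSeq start in each of 3 members is shown. Abca1 stands for the sterol-sensing arm of the set and Plin2 and Cd36 for its fatty acid arm. Each run is the 250 bases before a RefSeq start on GRCm38.p6, 5′ to 3′ on the strand of the gene, which is the minus strand for all of them: chr4:53159896-53160145 for Abca1, chr4:86670060-86670309 for Plin2 and chr5:17835897-17836146 for Cd36. The Cd36 window lies wholly inside the Cd36 span given above, so it precedes an internal start and not the 5′ end of the gene. The Abca1 and Plin2 windows lie partly inside their spans, so their starts also fall short of the outermost 5′ end. Cd36 had 12 RefSeq transcripts listed and 1 window at hand. Capitals mark matches to the motifs searched.
Abca1: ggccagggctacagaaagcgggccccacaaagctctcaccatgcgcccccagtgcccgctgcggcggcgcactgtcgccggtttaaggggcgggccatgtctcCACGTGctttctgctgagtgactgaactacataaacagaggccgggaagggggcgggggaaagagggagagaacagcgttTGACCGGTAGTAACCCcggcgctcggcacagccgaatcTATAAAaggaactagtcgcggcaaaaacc
Plin2: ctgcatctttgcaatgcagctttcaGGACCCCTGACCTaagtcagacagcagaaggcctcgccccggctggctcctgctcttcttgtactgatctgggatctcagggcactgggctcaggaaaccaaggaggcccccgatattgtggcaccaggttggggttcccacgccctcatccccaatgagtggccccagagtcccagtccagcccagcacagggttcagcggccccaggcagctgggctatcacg
Cd36: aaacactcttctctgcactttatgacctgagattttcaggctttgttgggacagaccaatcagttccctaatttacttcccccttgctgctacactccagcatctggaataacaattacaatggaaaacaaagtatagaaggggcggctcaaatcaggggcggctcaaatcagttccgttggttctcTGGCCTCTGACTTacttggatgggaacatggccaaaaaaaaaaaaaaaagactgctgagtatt

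In the Abca1 window, the hexamer repeat spaced by 4 bases that liver X receptors bind (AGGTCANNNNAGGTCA, searched on both strands with up to 3 mismatches) matched at 9 of 12 fixed letters, 67 to 52 bases before the start and on the other strand. The same window held an E-box (CACGTG) 147 to 142 bases and a TATA box (TATAAA) 29 to 24 bases before the start. The repeat spaced by 1 base that PPARs bind (AGGTCANAGGTCA, both strands, up to 2 mismatches) matched once in Plin2, 225 to 213 bases before the start. It also matched once in Cd36, 63 to 51 bases before the internal start. Among 32851 RefSeq windows of the same length, 18.5% held a match to the repeat spaced by 4, 3.24% to the repeat spaced by 1, 6.02% the E-box and 12.4% the TATA box. RefSeq windows were at hand for 6 of the 8 genes: those of Mylip and 1 of 3 for Apoe held a TATA box, and both for Nr1h3 held no match. The windows of Apoe and Nr1h3 lie wholly inside their gene spans, so they too precede internal starts. None of these letter matches was tested for binding in these kidneys.

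The libraries held 46.6 to 62.1 M counts, and the member with the fewest reads, Abcg1, still had 197 to 723 counts per library. Levels below are CPM, read counts scaled to the size of the library with TMM factors, which correct for library makeup. Kidney identity was plain: the summed level of 10 proximal tubule markers was 12356 to 17991 CPM in PBS, 14642 to 21251 CPM in EV200, 18984 to 19875 CPM in EV400 and 22190.2 to 22385 CPM in normal kidneys. One library, PBS 3, carried adipocyte transcripts: Adipoq stood at 7.67 CPM there and at 0 to 0.124 CPM in the other 11, so Lpl, Cd36 and Plin2 are given library by library. The 11 adipocyte markers summed to 49.1, 40.5 and 186 CPM in PBS, 49.3 to 54.0 CPM in EV200, 43.2 to 53.5 CPM in EV400 and 58.2 to 95.1 CPM in normal kidneys, and 0 of the 5 that passed the filter were called in any comparison. PBS 3 was also the one library with counts for all 6 brown fat markers, Ucp1 at 0.921 CPM. Their sum did not set it apart, at 6.43 CPM in PBS 3, 6.40 CPM in EV200 3 and 7.05 CPM in EV400 3. The 7 striated muscle markers summed to at most 1.31 CPM in any library.

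Per transcript length, the 8 genes spanned a wide range. Lpl and Cd36 stood at the top, with medians over the 12 libraries of 385 and 376 TPM, the authors' deposited scale of reads per transcript length and library size, and Apoe followed at 239 TPM. Plin2 had a median of 68.8 TPM, Nr1h3 of 39.8 TPM and Mylip of 22.6 TPM. The efflux transporters were lowest, Abca1 at 5.90 TPM and Abcg1 at 2.12 TPM. The ranges of Lpl (242 to 471 TPM), Cd36 (342 to 454 TPM) and Apoe (119 to 586 TPM) overlapped, so their order is not fixed from library to library. Those of the other 5 did not overlap with each other or with the top group, except that Nr1h3 (30.5 to 45.1 TPM) and Mylip (15.4 to 32.3 TPM) met at their edges. Apoe varied most within the set and Plin2 least, with the highest CPM of Apoe being 3.85 times its lowest.

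**Figure D1:**
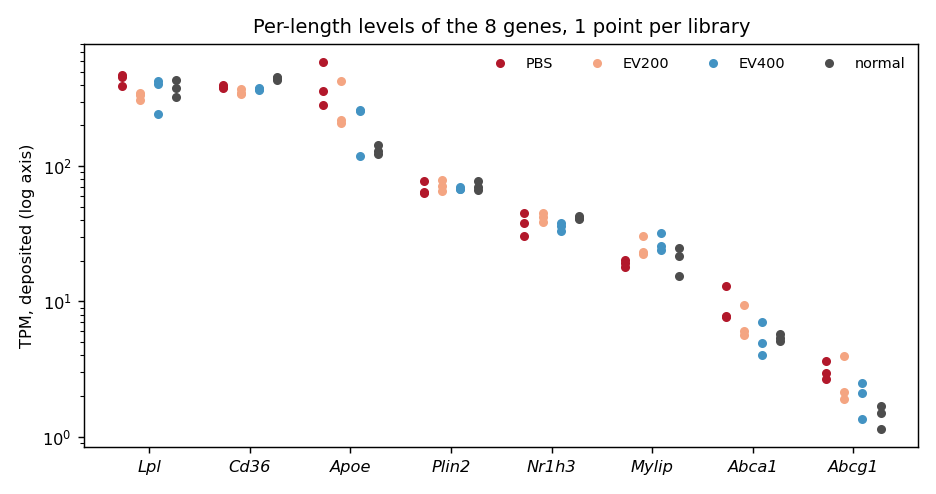
Deposited TPM of each of the 8 genes in every library, on a log axis, with genes ordered by median and each point 1 library. Lpl, Cd36 and Apoe lie above 100 TPM in all 12 libraries, and Abcg1 lies between 1.15 and 3.96 TPM.

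The first question was what 5 cycles of cisplatin followed by PBS left behind in these genes. Apoe was the single member called higher in PBS than in normal kidneys, 2.68-fold, and no member was called lower, at an adjusted p under 0.05 (edgeR quasi-likelihood F test, Benjamini-Hochberg over all genes). In that comparison 2.74% of all genes were called, 1.84% higher and 0.902% lower. Libraries of the groups did not overlap for 5 members: Apoe, Abca1 and Abcg1 were above, and Plin2 and Cd36 below, every normal library, where 40.3% of all genes had no overlap, 20.3% above and 20% below. At an unadjusted edgeR p under 0.05, 6 members and 29.8% of all genes passed. DESeq2 called 4 members, Apoe, Abcg1 and Abca1 higher and Cd36 lower, where it called 16.2% of the 17628 genes it gave an adjusted p. The median log2 fold change was -0.12 over the 8 members and 0.0022 over all genes.

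Apoe encodes an apolipoprotein that accepts cellular cholesterol and is made in large amounts by macrophages. Its level was 194, 369 and 243 CPM in the 3 PBS kidneys and 97.9, 95.9 and 108 CPM in the 3 normal kidneys. PBS 2 was the highest of all 12 libraries, and even the lowest PBS kidney exceeded every normal one. The log2 fold change was 1.42 (SE 0.29, adjusted p = 0.0429, edgeR with Benjamini-Hochberg adjustment). The call rested on single libraries: the adjusted p ran between 0.00961 and 0.158 as each library was left out. It stayed under 0.05 without EV200 1 (0.0360), EV200 3 (0.00961), EV400 3 (0.0320) or PBS 1 (0.0366). Without PBS 2 it was 0.139, without PBS 3 0.0638, without EV200 2 0.0525, without EV400 1 0.0629, without EV400 2 0.0621, and without normal 1, 2 or 3 it was 0.136, 0.158 and 0.145, while the log2 fold change stayed between 1.13 and 1.61.

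Abcg1, which moves cholesterol to high-density lipoprotein, had 8.35, 10.4 and 9.04 CPM in PBS kidneys and 5.74, 4.04 and 5.07 CPM in normal kidneys. All PBS libraries were above all normal ones. Its log2 fold change of 0.91 (SE 0.24) had an adjusted p of 0.0559 in edgeR and 0.00578 in DESeq2, so its call depends on the tool. In edgeR the adjusted p was under 0.05 without EV200 3 (0.0115) or PBS 1 (0.0431) and above it without any of the other libraries, at 0.189 without PBS 2 and at 0.136, 0.179 and 0.159 without normal 1, 2 or 3.

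Abca1, which loads cholesterol and phospholipid onto apolipoprotein A1, had 42.4, 65.8 and 41.7 CPM in PBS kidneys and 34.7, 33.5 and 30.4 CPM in normal kidneys. The groups did not overlap, and PBS 2 stood well above the other PBS libraries. The log2 fold change was 0.60 (SE 0.20), with an adjusted p of 0.0875 in edgeR and 0.0293 in DESeq2. Without PBS 2 it was 0.36 with an adjusted edgeR p of 0.331, and without EV200 3 the adjusted p was 0.0473.

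Nr1h3, the receptor gene itself, was not called. Its level was 42.6, 26.7 and 34.9 CPM in PBS kidneys and 44.9, 44.0 and 41.7 CPM in normal kidneys. PBS 2, the library highest in Apoe and Abca1, was the lowest of all in Nr1h3, and PBS 1 lay inside the normal range. Its log2 fold change was -0.33 (SE 0.14, adjusted p = 0.152 in edgeR), and it depended on the PBS library left out: without PBS 1 it was -0.50 with an adjusted p of 0.0408, and without PBS 2 it was -0.16 with an adjusted p of 0.491. Nr1h3 shares 34 exon bases with Gm13783, a processed transcript annotated on the same strand in GENCODE vM21, and the counting rule for such reads was not given in the sources used here.

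Mylip had 32.5, 26.6 and 30.3 CPM in PBS kidneys and 38.2, 44.8 and 26.7 CPM in normal kidneys. The groups overlapped because normal 3 was nearly as low as the lowest PBS kidney. In edgeR the log2 fold change was -0.30 (SE 0.17, adjusted p = 0.266), and it was -0.12 without normal 2 and -0.47 without normal 3.

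Cd36, which binds and takes up long-chain fatty acids and oxidised lipoproteins, had 562, 558 and 569 CPM in PBS kidneys and 749.5, 771 and 711 CPM in normal kidneys. The 3 PBS libraries, PBS 3 included, lay close together and all below the normal ones. Its log2 fold change was -0.40 (SE 0.10), with an adjusted p of 0.0503 in edgeR and 0.00138 in DESeq2. The edgeR value was under 0.05 without EV200 1 (0.0497), EV200 3 (0.0198), EV400 3 (0.0371) or PBS 1 (0.0468), and it was 0.0834 without PBS 3, the adipocyte library, 0.145 without PBS 2 and 0.140, 0.169 and 0.148 without normal 1, 2 or 3.

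Plin2, the main coat protein of droplets outside fat tissue, had 63.8, 58.9 and 75.0 CPM in PBS kidneys and 77.6, 76.3 and 84.7 CPM in normal kidneys. PBS 3 was the highest PBS library and lay just under the lowest normal one. In edgeR its log2 fold change was -0.27 (SE 0.11, adjusted p = 0.125), and without PBS 3 it was -0.38 (adjusted p = 0.0852). On the deposited TPM scale the groups overlapped, at 63.2, 64.0 and 77.1 TPM in PBS and 69.9, 67.0 and 77.4 TPM in normal kidneys.

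Lpl had 1019.9, 914 and 836 CPM in PBS kidneys and 898, 1059 and 768 CPM in normal kidneys. The 2 groups were mixed throughout, and PBS 3 held the least Lpl of the PBS libraries. Lpl is strongly expressed in fat cells. PBS against normal kidneys gave a log2 fold change of 0.02 (SE 0.16, adjusted p = 0.937 in edgeR), and it was 0.09 without PBS 3, 0.15 without normal 2 and -0.08 without normal 3.

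**Figure D2:**
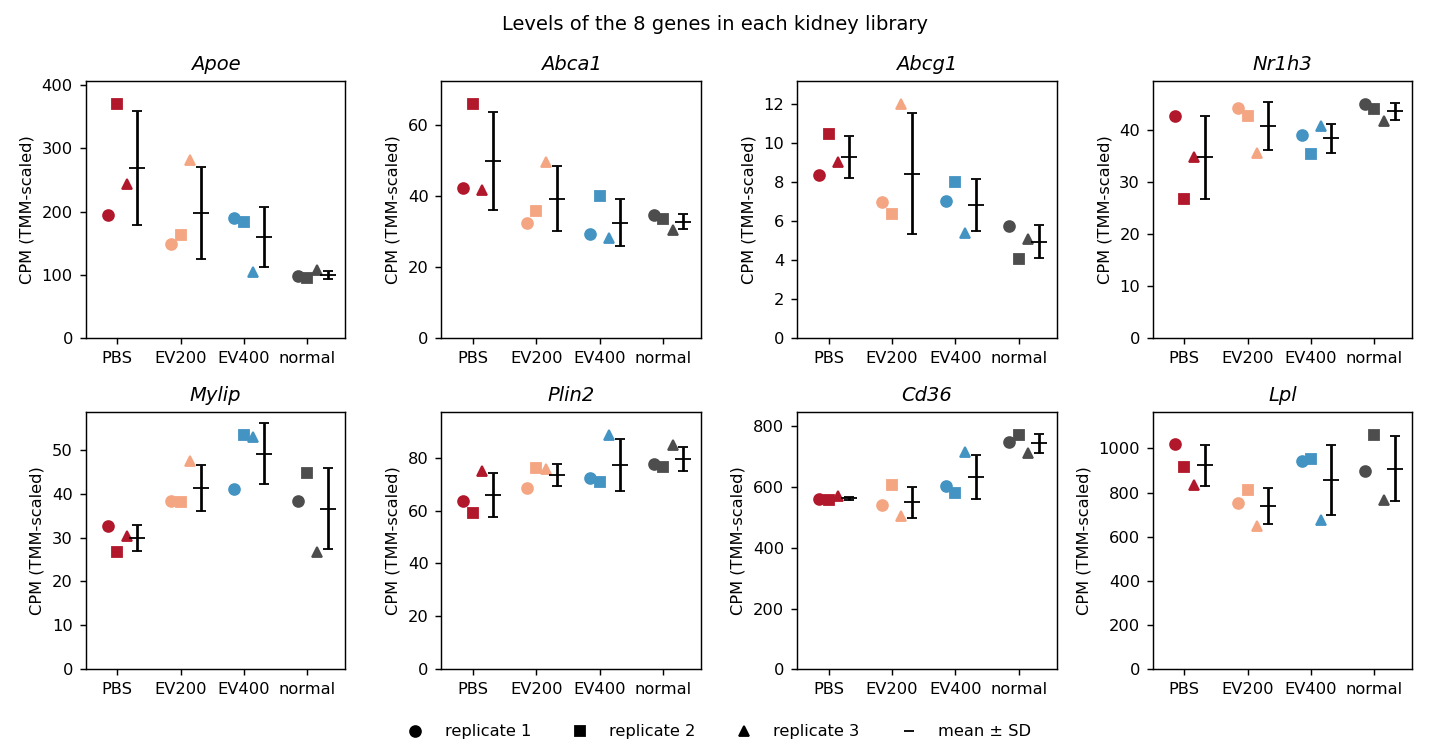
CPM of the 8 genes in every library, with PBS, EV200, EV400 and normal kidneys from left to right, points for libraries (circle, square and triangle for replicates 1, 2 and 3) and a bar for each group's mean ± SD. Apoe, Abca1 and Abcg1 are above the normal libraries in all 3 PBS kidneys, Cd36 and Plin2 are below, and PBS 3 is the lowest PBS point for Lpl (836 CPM) and the highest for Plin2 (75.0 CPM).

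**Figure D3:**
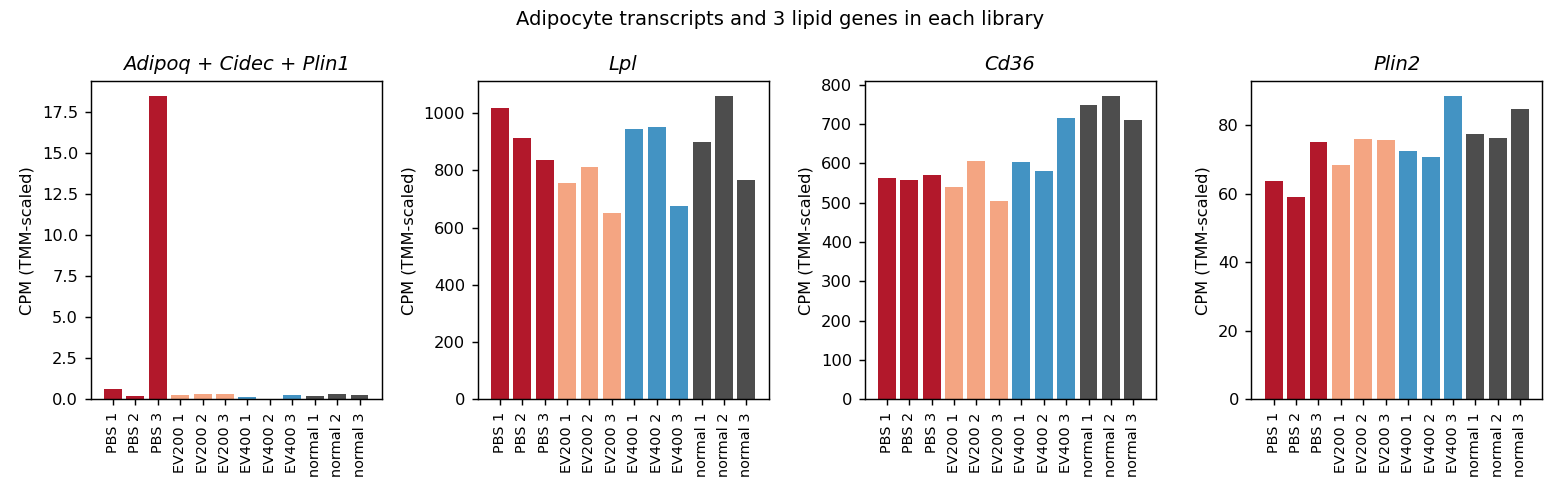
Bars of the summed CPM of the adipocyte genes Adipoq, Cidec and Plin1 in every library beside the CPM of Lpl, Cd36 and Plin2. The 3 adipocyte genes sum to 18.5 CPM in PBS 3 and to at most 0.622 CPM in each of the other 11 libraries, whereas PBS 3 is lowest of the PBS kidneys for Lpl (836 CPM) and highest for Cd36 (569 CPM) and Plin2 (75.0 CPM).

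Markers of some other cell types also differed between these libraries. The summed level of 12 macrophage markers was 364, 742 and 473 CPM in PBS kidneys, 206, 235 and 639.6 CPM in EV200 kidneys, 309, 311 and 136 CPM in EV400 kidneys, and 167, 147 and 141 CPM in normal kidneys. PBS 2 and EV200 3 were highest in this sum and also in Apoe, Abca1 and Abcg1, and EV400 3 was lowest of the cisplatin-treated kidneys in the sum and in all these genes. Of the 12 markers, 5 were called higher in PBS than in normal kidneys, where 1.84% of all genes were, and all had counts in every library except Trem2 (0 in EV400 3 and normal 2) and Gpnmb (0 in normal 1 and normal 3). Adgre1 ranged over 11.6 to 24.9 CPM in PBS and 3.51 to 6.56 CPM in normal kidneys, and Cd68 over 9.38 to 17.9 CPM in PBS and 2.28 to 3.36 CPM in normal kidneys. Csf1r ranged over 85.8 to 105 CPM in PBS and 75.5 to 88.3 CPM in normal kidneys, which overlap. The 7 fibroblast and pericyte markers, 2 of them called higher in PBS than in normal kidneys against the same 1.84% of genes, summed to 171 to 489 CPM in PBS, 114 to 297 CPM in EV200, 75.6 to 177 CPM in EV400 and 116 to 123 CPM in normal kidneys. In whole tissue, more or fewer cells of a type and more or less RNA per cell cannot be told apart, and the part of macrophage, fibroblast or tubule content in the member values was not tested. Of the 10 tubule markers 1 was called lower in PBS than in normal kidneys, where 0.902% of all genes were, and of 10 endothelial markers 0 were called. At an unadjusted edgeR p under 0.05, 11 macrophage, 6 fibroblast, 9 tubule and 2 endothelial markers passed there, where 29.8% of all genes did. No marker was called in any comparison with EV200 or EV400. In EV400 against PBS, 7 macrophage and 6 fibroblast markers had an unadjusted edgeR p under 0.05, where 23.5% of genes did, and in EV200 0 and 1, where 6.9% did.

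**Figure D4:**
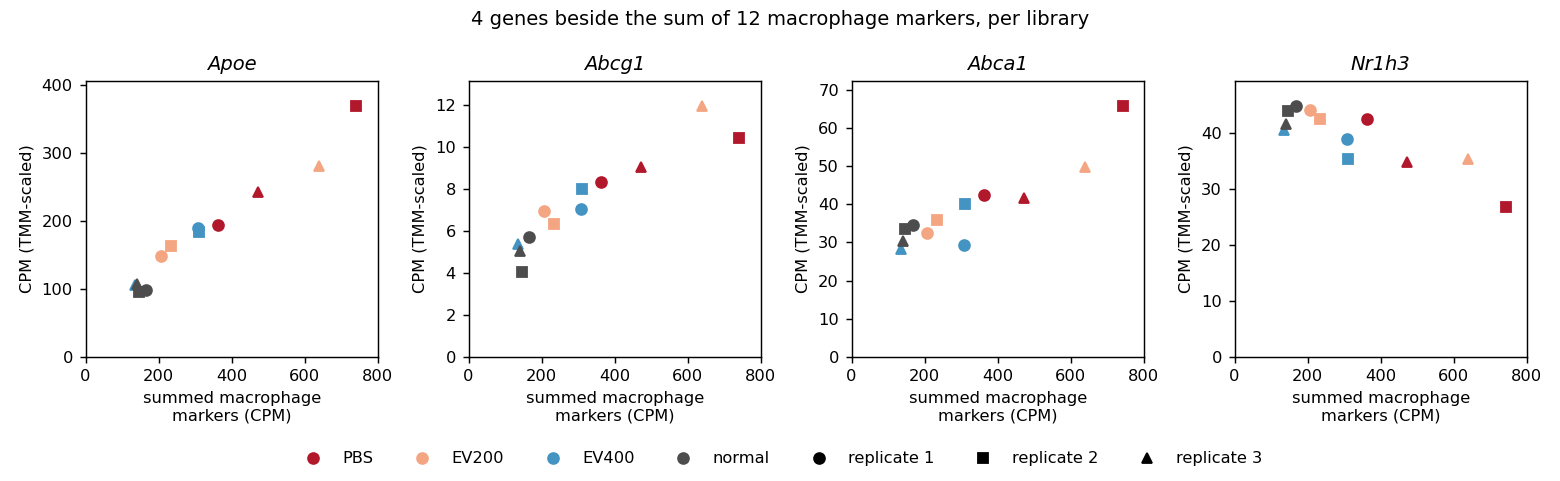
CPM of Apoe, Abcg1, Abca1 and Nr1h3 against the summed CPM of 12 macrophage markers, 1 point per library, with colours for the groups and point shapes for the replicates. PBS 2 (742 CPM of markers) and EV200 3 (639.6 CPM) hold the highest Apoe, at 369 and 281 CPM, and PBS 2 holds the lowest Nr1h3, at 26.7 CPM.

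The second question was whether iMSC-EVs after cisplatin changed these genes, and both doses were compared with the same 3 PBS kidneys. No member was called for EV400 or EV200 by edgeR. Across all genes, 0.0801% were called in EV400 and 0.016% in EV200 kidneys against PBS. At an unadjusted edgeR p under 0.05, 3 members passed in EV400 (Mylip, Abca1 and Apoe), where 23.5% of genes did, and 1 in EV200 (Mylip), where 6.9% did. DESeq2 called Mylip higher and Abca1 lower in EV400, among 6.99% of the 14367 genes it gave an adjusted p. It called no member in EV200, among 0.29% of 16539 such genes. Libraries of EV400 and PBS kidneys did not overlap for 5 members and 26% of all genes: Mylip and Cd36 lay higher, as 12.2% of genes did, and Apoe, Abca1 and Abcg1 lower, as 13.8% did. Libraries of EV200 and PBS kidneys did not overlap for 2 members and 10.5% of all genes: Mylip lay higher, as 5.53% of genes did, and Lpl lower, as 4.94% did.

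Mylip had the smallest p of the set at both doses. It stood at 41.0, 53.3 and 52.9 CPM in EV400 kidneys, at 38.3, 38.1 and 47.3 CPM in EV200 kidneys and at 32.5, 26.6 and 30.3 CPM in PBS kidneys. Every treated library exceeded every PBS library, while the doses overlapped with each other. Its log2 fold change was 0.72 (SE 0.17) for EV400, with an adjusted p of 0.123 in edgeR and 0.00570 in DESeq2, and 0.47 (SE 0.17, unadjusted p = 0.0190, adjusted p = 0.657 in edgeR) for EV200. Leaving out each library left the EV400 value between 0.65 and 0.84 with no adjusted edgeR p under 0.0815.

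Abca1 had 29.3, 40.1 and 28.3 CPM in EV400, 32.6, 35.8 and 49.7 CPM in EV200 and 42.4, 65.8 and 41.7 CPM in PBS kidneys. The EV400 libraries lay below all PBS libraries, and the EV200 libraries did not. For Abca1 the log2 fold change was -0.62 (SE 0.20) for EV400, with an adjusted p of 0.158 in edgeR and 0.0494 in DESeq2, and -0.35 (SE 0.20, adjusted p = 0.657 in edgeR) for EV200. Without PBS 2 the EV400 value was -0.36 and the EV200 value -0.09, and without EV200 1 or EV200 3 the EV200 value was -0.22 or -0.55.

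Apoe had 189, 184 and 105 CPM in EV400, 148, 163 and 281 CPM in EV200 and 194, 369 and 243 CPM in PBS kidneys. The highest EV400 kidney was just under the lowest PBS kidney, EV400 3 reached the normal range, and EV200 3 lay among the PBS values. Against PBS its log2 fold change was -0.75 (SE 0.29, adjusted p = 0.178 in edgeR) for EV400 and -0.44 (SE 0.29, adjusted p = 0.657 in edgeR) for EV200. Without PBS 2 the EV400 value was -0.45 and the EV200 value -0.14, and without EV200 1 or EV200 3 the EV200 value was -0.27 or -0.79.

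Abcg1 had 7.03, 8.02 and 5.40 CPM in EV400, 6.97, 6.35 and 12.0 CPM in EV200 and 8.35, 10.4 and 9.04 CPM in PBS kidneys. The EV400 libraries were all below PBS, while EV200 3 was the highest of the 12. EdgeR gave a log2 fold change of -0.44 (SE 0.24, adjusted p = 0.257) for EV400 and -0.14 (SE 0.23, adjusted p = 0.841) for EV200. The EV400 value was -0.29 without EV400 3, and the EV200 value was -0.48 without EV200 3 and 0.036 without EV200 2.

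Nr1h3 had 39.1, 35.3 and 40.7 CPM in EV400, 44.1, 42.6 and 35.5 CPM in EV200 and 42.6, 26.7 and 34.9 CPM in PBS kidneys. All 3 groups overlapped. In edgeR the log2 fold change was 0.14 (SE 0.14, adjusted p = 0.535) for EV400 and 0.23 (SE 0.14, adjusted p = 0.657) for EV200. Without PBS 1 these were 0.32 for EV400 and 0.41 for EV200, and without PBS 2 they were -0.012 for EV400 and 0.076 for EV200.

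Cd36 had 604, 581 and 714 CPM in EV400, 540.2, 606 and 506 CPM in EV200 and 562, 558 and 569 CPM in PBS kidneys. Every EV400 library was above every PBS library, EV400 3 alone reached the normal range, and the EV200 libraries lay on both sides of PBS. Its log2 fold change was 0.17 (SE 0.10, adjusted p = 0.290 in edgeR) for EV400, which moved to 0.08 without EV400 3, and -0.03 (adjusted p = 0.911 in edgeR) for EV200. On the deposited TPM scale the direction for EV400 turned: the mean was 372 TPM in EV400 and 388 TPM in PBS kidneys.

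Plin2 had 72.5, 70.9 and 88.5 CPM in EV400, 68.5, 76.0 and 75.7 CPM in EV200 and 63.8, 58.9 and 75.0 CPM in PBS kidneys. Both doses overlapped PBS through PBS 3 alone, the library with adipocyte transcripts. The log2 fold change was 0.23 (SE 0.11, adjusted p = 0.220 in edgeR) for EV400 and 0.16 (adjusted p = 0.657 in edgeR) for EV200. Without PBS 3 these were 0.33 (adjusted p = 0.174) for EV400 and 0.26 (adjusted p = 0.618) for EV200. The EV400 value was 0.13 without EV400 3, and the EV200 value was 0.085 without PBS 2.

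Lpl had 944, 950.5 and 675 CPM in EV400, 755, 811 and 649.9 CPM in EV200 and 1019.9, 914 and 836 CPM in PBS kidneys. The EV200 libraries were below all PBS libraries, and EV400 3 alone of the EV400 libraries was. For Lpl the log2 fold change was -0.11 (SE 0.16, adjusted p = 0.678 in edgeR) for EV400 and -0.32 (SE 0.16, adjusted p = 0.657 in edgeR) for EV200. Without PBS 3 the EV200 value was -0.39 (adjusted p = 0.618), and without EV400 3 the EV400 value was 0.048.

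The deposited TPM and the TMM-scaled counts were centred differently. The median log2 TPM ratio was -0.24 in EV400 against PBS, -0.09 in EV200 against PBS and 0.20 in PBS against normal kidneys. It was taken over genes with a mean TPM above 0 in both groups, 18700, 18720 and 18660 in that order. Over the same genes, the medians from TMM-scaled counts were -0.024, -0.0025 and 0.0012. Once each TPM ratio was set against its median, every member kept the direction of its count-based value in these 3 comparisons. Before that centring, Cd36 and Nr1h3 turned in EV400 against PBS (Nr1h3 had means of 35.8 TPM in EV400 and 37.8 TPM in PBS kidneys), and so did Plin2 and Nr1h3 in EV200 against normal kidneys and Plin2 in EV400 against EV200.

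**Figure D5:**
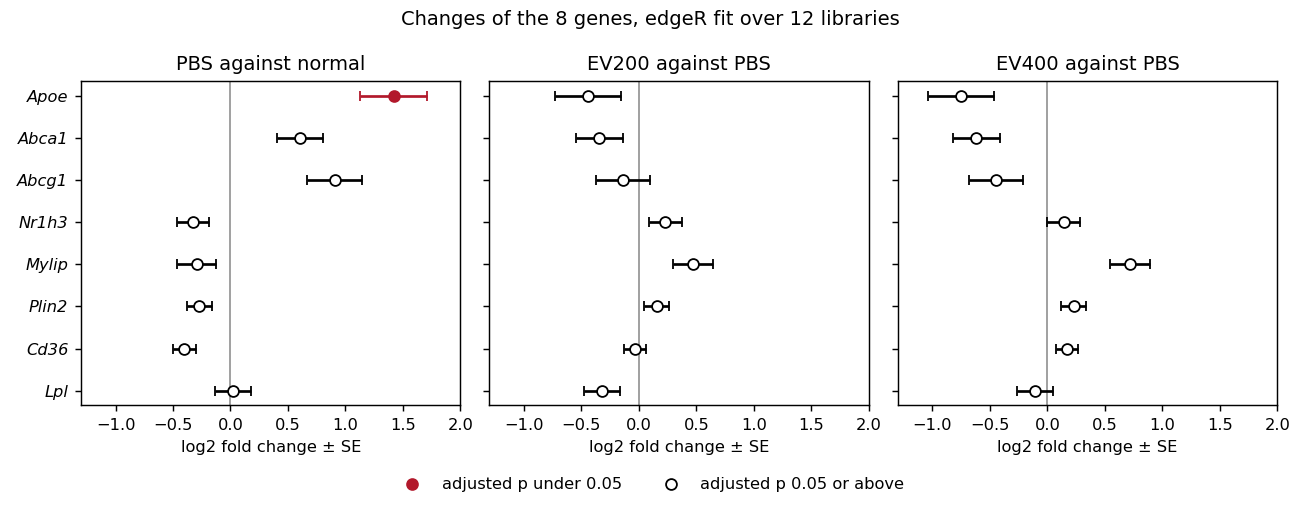
Log2 fold change of each gene from edgeR, for PBS against normal, EV200 against PBS and EV400 against PBS kidneys. Bars are 1 SE, derived from the F statistic, and filled points have an adjusted p under 0.05. Apoe in PBS against normal kidneys, at 1.42, is the largest value, and Mylip is the highest for both doses, at 0.47 for EV200 and 0.72 for EV400.

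The third question was how far treated kidneys stood from normal ones and from each other. No member was called by edgeR in EV400 or EV200 against normal kidneys, or in EV400 against EV200, where 0%, 0.0694% and 0.00534% of all genes were called. In EV400 against normal kidneys, where DESeq2 called 0.187% of genes and no member, 6.98% of genes and 3 members (Mylip, Cd36 and Apoe) had an unadjusted edgeR p under 0.05. Libraries did not overlap for Nr1h3 alone, lower in EV400, where 18.8% of genes did not overlap, 8.28% higher and 10.6% lower. Apoe averaged 159 ± 47.4 CPM in EV400 and 100.5 ± 6.26 CPM in normal kidneys (SD, n = 3 each), a log2 fold change of 0.67 (SE 0.29, adjusted p = 0.694 in edgeR). Abca1 averaged 32.6 ± 6.51 CPM in EV400 and 32.9 ± 2.23 CPM in normal kidneys (SD, n = 3 each).

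In EV200 against normal kidneys, libraries did not overlap for 4 members, Apoe and Abcg1 higher and Cd36 and Plin2 lower, where 24.9% of all genes did not, 11.9% higher and 12.9% lower. On the TPM scale Plin2 did not keep that place, with means of 72.1 TPM in EV200 and 71.4 TPM in normal kidneys. At an unadjusted edgeR p under 0.05, 3 members and 13.2% of genes passed. Cd36 averaged 551 ± 51.0 CPM in EV200 and 744 ± 30.2 CPM in normal kidneys (SD, n = 3 each), a log2 fold change of -0.43 (SE 0.10) with an adjusted p of 0.106 in edgeR. DESeq2 called it (adjusted p = 0.00107), the single member among 2.62% of genes. Apoe averaged 198 ± 72.9 CPM in EV200 kidneys and its log2 fold change was 0.98 (SE 0.29, adjusted p = 0.206 in edgeR), which was 0.63 without EV200 3. Between the doses, libraries overlapped for all 8 members (10.7% of all genes did not overlap), no unadjusted edgeR p was under 0.05 where 6.34% of genes had one, and DESeq2 called no member. Cd36 had the smallest p, with a log2 fold change of 0.20 (unadjusted p = 0.0607 in edgeR).

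In a joint edgeR test of any difference among the 4 groups, 12 of 18730 genes were called (0.0641%), and no member was. The adjusted p was lowest for Cd36 (0.136), Apoe (0.140) and Mylip (0.167) and highest for Lpl (0.435). Across the tools and settings run, the members called at least once in PBS against normal kidneys were Abca1, Abcg1, Apoe, Cd36 and Nr1h3. Of these, Nr1h3 was called only without PBS 1, where 11.9% of genes were. Abca1 was called there only by DESeq2 (16.2% of genes) or without EV200 3 (12.6%). DESeq2 alone called Abca1 and Mylip in EV400 against PBS (6.99% of genes) and Cd36 in EV200 against normal kidneys (2.62%). The share of all genes called at least once was not computed.

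Genes that work beside the members were read from 6 lists. In PBS against normal kidneys edgeR called 2 higher and 0 lower of 10 liver X receptor targets outside the set that passed the filter, of 14 listed, with a median log2 fold change of 0.49, where 1.84% of all genes were called higher. These were Scd2, a desaturase that makes monounsaturated fatty acids, and Arl4c, a small GTPase. Scd2 had 153, 113 and 113 CPM in PBS and 76.5, 72.7 and 80.5 CPM in normal kidneys, a log2 fold change of 0.72 (SE 0.13, adjusted p = 0.0379 in edgeR). Arl4c had 10.7, 24.0 and 14.1 CPM in PBS and 5.74, 5.11 and 4.59 CPM in normal kidneys, a log2 fold change of 1.66 (SE 0.38, adjusted p = 0.0471 in edgeR). For both, the PBS libraries lay above all normal ones, and for Arl4c PBS 2 was the highest, as for Apoe. The related desaturase Scd1 reached 529.6 CPM in PBS 3, against 246 and 231 CPM in PBS 1 and PBS 2, and its log2 fold change of 0.87 was 0.38 without PBS 3.

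Of 12 genes of sterol transport and ester handling, 0 were called higher and 1 lower in PBS than in normal kidneys, where 0.902% of all genes were called lower, with a median log2 fold change of 0.14. That gene was Lipa, the lysosomal acid lipase that splits cholesterol esters, at 269, 261 and 325 CPM in PBS and 395, 393 and 393 CPM in normal kidneys. All PBS libraries were below all normal ones, with a log2 fold change of -0.47 (SE 0.09, adjusted p = 0.0428 in edgeR). It had 394, 379 and 402 CPM in EV400 kidneys, each above every PBS kidney, and the log2 fold change for EV400 against PBS was 0.46 (SE 0.09, adjusted p = 0.0887 in edgeR).

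The adjusted p of these 3 genes in PBS against normal kidneys passed and missed 0.05 as single libraries were left out, as that of Apoe did. It ranged over 0.0112 to 0.149 for Scd2, 0.00968 to 0.164 for Arl4c and 0.0125 to 0.158 for Lipa. It stayed under 0.05 for all 3 without EV200 1, EV200 3, EV400 3 or PBS 1, and for Scd2 and Lipa also without PBS 3, and was above 0.05 without any of the other libraries.

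No gene was called by edgeR in the other 4 lists in PBS against normal kidneys. In that comparison DESeq2 called 4 of 16 droplet, 2 of 14 uptake, 2 of 4 PPAR genes and 0 of 8 receptor partners. It also called 4 of the 10 other liver X receptor targets and 2 of the 12 sterol genes, where it called 16.2% of genes. The median log2 fold change was -0.16 over 8 receptor partners and cofactors, -0.22 over 16 measured genes of lipid droplets and triglyceride turnover, -0.24 over 14 measured genes of lipolysis and fatty acid uptake, and 0.19 over 4 PPAR genes, with 0.0022 over all genes. In the droplet list, Dgat2, which makes triglyceride, had 126, 77.8 and 132 CPM in PBS and 169, 176 and 169 CPM in normal kidneys, a log2 fold change of -0.62 (SE 0.17, adjusted p = 0.0587 in edgeR). The PBS values were all lower, with PBS 2 lowest. Cidec and Plin4, droplet proteins of fat cells, stood at 7.35 and 8.71 CPM in PBS 3 and at most at 0.414 and 1.85 CPM elsewhere. In the uptake list, Slc27a2, a fatty acid transporter of the proximal tubule, had 3837, 3056 and 3776 CPM in PBS and 5067, 5333 and 5026 CPM in normal kidneys. Its log2 fold change was -0.53 (SE 0.13, adjusted p = 0.0518 in edgeR). The PPAR median joins genes that went opposite ways. Ppara ranged over 106 to 126 CPM in PBS and 154 to 171 CPM in normal kidneys. Ppard ranged over 19.7 to 51.1 CPM in PBS and 17.8 to 18.9 CPM in normal kidneys, and the groups overlapped for Ppargc1a.

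No gene of the 6 lists was called by edgeR in any of the comparisons with EV200 or EV400. In EV400 against PBS DESeq2 called 2 other liver X receptor targets, 2 sterol, 1 droplet, 4 uptake and 2 PPAR genes, among 6.99% of genes. It called 2 of those targets in EV200 against normal kidneys, among 2.62% of genes, and no list gene in the remaining comparisons with EV200 or EV400. The median log2 fold change in EV400 against PBS was -0.36 for the 10 other liver X receptor targets and -0.23 for sterol transport and esters. It was 0.30 for droplets and triglyceride turnover and 0.16 for lipolysis and uptake. For receptor partners and cofactors it was -0.07 and for PPAR genes -0.31, with -0.025 over all genes. In EV200 against PBS the same lists had, in that order, medians of -0.26, -0.02, 0.15, 0.19, 0.0082 and -0.18, with -0.0025 over all genes. The PBS libraries are shared with the comparison against normal kidneys, so opposite signs in the comparisons are not independent of each other.

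The genes whose levels followed each member most closely were ranked by Pearson correlation of log2 CPM over the 12 libraries, among 10699 genes averaging at least 5 CPM. The libraries fall into treatment groups, so these values describe the pattern and carry no test. Apoe was followed most closely by Ctsc, a lysosomal protease (r = 0.99, Spearman rho = 0.96), and Tnc, a matrix glycoprotein (r = 0.99, rho = 0.97). Abcg1 was followed by Spp1, which encodes osteopontin (r = 0.98, rho = 0.96), and Abca1 by Dtx3l, a ubiquitin ligase (r = 0.97, rho = 0.90). Cd36 was followed by Hykk (r = 0.96, rho = 0.94) and Agps, an enzyme of ether lipid synthesis in peroxisomes (r = 0.96, rho = 0.91). Plin2 was followed by Eci2, an enzyme of fatty acid oxidation (r = 0.93, rho = 0.88), and by the pseudogene Tmed10-ps (r = 0.97, rho = 0.96). The closest for Mylip was Metrnl (r = 0.93, rho = 0.94), for Nr1h3 Eif2b2 (r = 0.97, rho = 0.96) and for Lpl Ddx51 (r = 0.90, rho = 0.92).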

How the data were processed

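Polyadenylated RNA from 12 mouse kidneys was read on a NovaSeq X as pairs of 101 bases after a TruSeq Stranded mRNA preparation, per the labels' protocols. The submitters' processing notes name FastQC 0.11.7, Trimmomatic 0.38, HISAT2 2.1.0, StringTie 2.1.3b and the builds GRCm38 and mm10. The sources used here do not give the annotation release, the counting tool or its strand setting. Raw read counts and TPM per gene were deposited by the authors in 1 table. Of its 45777 genes, 17340 were at 0 in every library, and 12 columns of FPKM were not used. TPM served to set levels of different genes side by side and to check directions.

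Counts were tested with edgeR 4.0.16 (quasi-likelihood, TMM factors, filterByExpr by group, all 12 libraries in 1 fit with 8 residual degrees of freedom) in R 4.3.3, with Benjamini-Hochberg adjustment over the 18730 genes kept and 0.05 as the threshold. Each SE was derived from the test, as the absolute log2 fold change divided by the square root of its F statistic. CPM used the TMM-scaled totals. DESeq2 1.42.0, its size factors, no filter, a replicate term, fits of 2 groups and the omission of each library were alternatives. Shares called by DESeq2 are over the genes it gave an adjusted p, which differ in number between comparisons. Shares called by edgeR are over all 18730 in the main test and over the genes tested in each alternative. The script was tested on simulated data. The members and lists were chosen with earlier results of these data known. Beside the 8 members, the text names up to 3 genes per pathway list by the joint test of the groups, the first 3 markers of a list, and up to 2 genes per member by correlation; the adipocyte genes Cidec and Plin1, and Gm13783, were named as checks. A further list, of Mylip substrates, is not reported here. Counts per library differed between all pairs of a group by more than counting noise. Sequences and gene positions came from RefSeq GRCm38.p6, which matched 45679 identifiers.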

Additional observations from a re-analysis of the deposited data

How the results depend on the processing

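In PBS against normal kidneys 1 member was called with DESeq2's size factors or no filter, as in the main test. Of the genes tested, 2.79%, 1.05% and 2.74% were called in those fits, in that order. DESeq2's own test called 4 members and 16.2% of genes. A fit of those groups alone called 3 members (Apoe, Abcg1 and Cd36) and 8.04% of genes. As each library was left out, 0 to 4 members and 0% to 12.6% of genes were called. The 4 were reached without EV200 3 or PBS 1, where 12.6% and 11.9% of genes were called. In EV400 against PBS DESeq2 called 2 members and 6.99% of genes, and in EV200 against normal kidneys 1 member and 2.62%. The joint test called 0 to 1 members as each library was left out. The share of all genes called in those joint fits was not computed, so nothing is read from this count. Same-numbered libraries of different groups had correlations of their deviations between -0.39 and 0.34. Differently numbered libraries were not compared in this way, so whether replicate numbers pair the samples stays unknown. With the replicate block, 0 members and 0 of 18730 genes were called in PBS against normal kidneys, and no member was called in the other comparisons. The cause of these shifts was not tested. Genes called in PBS against normal kidneys numbered 514 in the main test, 2855 with DESeq2, 1449 in the fit of those groups alone, 299 with no filter, and 0 to 2405 as each library was left out.

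Abca1 in EV400 against normal kidneys had a log2 fold change of -0.01, and of 0.00439 with no filter. As each library was left out, the values that follow changed sign in at least 1 fit. In EV400 against normal kidneys Abca1 ranged over -0.19 to 0.10, Lpl over -0.18 to 0.079 and Plin2 over -0.13 to 0.022. In EV400 against PBS Lpl ranged over -0.19 to 0.048, Nr1h3 over -0.012 to 0.32 and Plin4 over -1.86 to 0.018, above 0 without PBS 3 alone. In EV200 against PBS Abcg1 ranged over -0.48 to 0.036 and Cd36 over -0.10 to 0.026. In EV400 against EV200 Abcg1 ranged over -0.47 to 0.034, Apoe over -0.47 to 0.035 and Plin2 over -0.029 to 0.13. In PBS against normal kidneys Lpl ranged over -0.076 to 0.15. None of these crossing values was called. With 46.6 to 62.1 M counts per library, 3 counts correspond to 0.0433 to 0.0695 CPM, below the level of each of the 8 members.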
